A study of Mus musculus with 8 samples.

Results

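The enzymes described here are those that oxidize, hydrolyze and conjugate foreign compounds and retinoids in mouse small intestinal organoids. They were taken from the read count table by symbol, leaving out Cyp51, which serves sterol synthesis. All genes named Cyp, Aldh, Ces, Ugt, Sult or Mgst with a number were taken. Gst genes were those of the alpha, kappa, mu, omega, pi, theta and zeta classes. This gave 103 of the 13420 genes in the table, made up of 38 Cyp, 19 Aldh, 9 Ces, 20 Gst, 3 Mgst, 8 Ugt and 6 Sult genes. WT organoids carried mTmG, a reporter that gives membrane-bound tdTomato, on a C57BL/6 background, and their donors were male and female Rosa26-CreERT2::mT/mG mice of 9 to 30 weeks according to the methods of the study. Cancer organoids were Dendra2-labeled, on a C57BL/6 (F6) background, and carried, among their alleles, Villin-CreERT2, Apc fl/fl and Tr53 fl/R172H, so that the Villin promoter restricts recombination to the intestinal epithelium. The methods describe this line as taken from male mice of 7 to 16 weeks on day 3 after tamoxifen. WT and cancer cells were cultured pure or mixed at 2 parts of WT to 1 part of cancer cells, sorted alive by their label on day 3 after mixing, and sequenced in bulk. Each of the 4 groups has 2 libraries, named by well as A01 and A05 (pure WT), A02 and A06 (mixed WT), A03 and A07 (pure cancer), and A04 and A08 (mixed cancer). Neither labels nor methods say whether these came from separate cultures, and p-values below measure only the spread between these libraries. The organoids were grown from epithelium, in medium with N-acetylcysteine, a precursor of glutathione, in all groups.

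Intestinal epithelium meets dietary and bacterial compounds first, and its absorptive cells carry much of the detoxifying capacity outside the liver. Cytochrome P450 enzymes (Cyp) and carboxylesterases (Ces) expose or create reactive groups, aldehyde dehydrogenases (Aldh) oxidize the aldehydes that result, and glutathione transferases (Gst, and Mgst in membranes), glucuronosyltransferases (Ugt) and sulfotransferases (Sult) attach a soluble group for excretion. Aldh1a enzymes make retinoic acid from retinal and Cyp26 enzymes degrade it, which sets the signal that vitamin A gives to the epithelium.

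Levels are given as normalized CPM, the reads of a gene per 1000000 after the total of each library was scaled by its TMM factor. CEL-Seq reads the 3′ end of each transcript, so transcript length does not enter these levels. Depth ran from 73109 reads in A02 to 4733121 in A04, and the level that 3 reads make over both libraries of a group, used as the limit for a gene without reads, was 1.04 and 5.8 CPM for pure and mixed WT and 5.72 and 0.566 CPM for pure and mixed cancer cells. Intervals and limits cover counting error only, since reads are not independent molecules. Of the 103 genes, 40 had enough reads to be tested among 5264 genes in a single edgeR fit. All 5 tested markers of epithelium were found in every library, at a summed 4450 to 15000 CPM, while the listed immune markers reached at most 2.27 CPM those of fibroblasts and muscle reached at most 5.25 CPM (in A03, with reads in A03 and A04 only), and the endothelial ones were not among the genes of the table. Reads of Trp53, which the labels spell Tr53, were present in all 8 libraries (5.25 to 324 CPM), and 3′ reads do not show the deletions or the point mutations.

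As examples of regulatory sequence, the promoters of Cyp2c65, Cyp2b10 and Gsta3 are given, from 250 bases before to 50 after the start in the RefSeq table of GRCm38.p6. Each holds a match to a motif searched, while the promoters of Ces2e, Aldh1b1 and Gstm3, for example, hold none. Cyp2c65 and Cyp2b10 were lower in cancer cells, and Gsta3 was lower in mixed cancer than in mixed WT cells. They lie at chr19:39060756-39061055 (plus strand, Cyp2c65), chr7:25897408-25897707 (plus strand, Cyp2b10) and chr1:21240335-21240634 (plus strand, Gsta3). Capitals mark matches to the motifs searched.
Cyp2c65: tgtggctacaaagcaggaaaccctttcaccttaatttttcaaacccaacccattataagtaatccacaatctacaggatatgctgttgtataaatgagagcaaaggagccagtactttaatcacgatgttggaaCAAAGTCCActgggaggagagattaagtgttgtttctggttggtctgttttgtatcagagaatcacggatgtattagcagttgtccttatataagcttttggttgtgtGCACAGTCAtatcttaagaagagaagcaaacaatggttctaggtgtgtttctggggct
Cyp2b10: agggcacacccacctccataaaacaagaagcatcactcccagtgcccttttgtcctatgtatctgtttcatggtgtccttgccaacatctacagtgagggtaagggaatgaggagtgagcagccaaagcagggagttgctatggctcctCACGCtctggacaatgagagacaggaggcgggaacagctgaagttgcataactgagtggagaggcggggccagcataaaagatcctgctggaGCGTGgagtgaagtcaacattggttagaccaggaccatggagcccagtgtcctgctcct
Gsta3: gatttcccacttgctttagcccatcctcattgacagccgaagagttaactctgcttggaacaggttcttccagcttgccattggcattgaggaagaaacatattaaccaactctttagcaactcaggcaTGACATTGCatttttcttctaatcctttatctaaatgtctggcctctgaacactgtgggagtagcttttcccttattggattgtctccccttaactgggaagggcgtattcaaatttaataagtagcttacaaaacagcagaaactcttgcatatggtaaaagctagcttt
Motifs were searched on both strands as exact letters. CAAAGTCCA, a site of the type bound by HNF4 receptors, occurred in the Cyp2c65 promoter, in 4.81% of the 104 promoters found for 85 of the enzyme genes and in 0.475% of all 32851 promoters. The 5 enzyme genes with this site were Cyp2c65, Cyp2c68, Cyp2c70, Cyp3a11 and Sult1b1, and the Cyp2c genes among them are relatives in the same chromosomal cluster. Promoters were found for 18 of the genes lower in both comparisons of cancer and WT cells, and of these 18 Cyp2c65 alone had the site. GCGTG, the core of the xenobiotic response element that the dioxin receptor binds, occurred on each strand of the Cyp2b10 promoter, in 27.9% of the enzymes' promoters and in 32.4% of all. TGACNNNGC, the core of the antioxidant response element, occurred in the Cyp2c65 promoter on the minus strand and in the Gsta3 promoter on the plus strand, in 10.6% of the enzymes' promoters and in 12.4% of all. AGGTCA, the nuclear receptor core, which can overlap the antioxidant core on the opposite strand, was in none of the 3 promoters shown, in 17.3% of the enzymes' promoters and in 16.3% of all. A match is only a run of letters.

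The enzyme genes together took 0.77% to 1.32% of the reads in the 4 WT libraries and 0.232% to 0.501% in the 4 cancer libraries. The family sums of Ces, Ugt, Mgst, Cyp and Gst were lower in each cancer library than in every WT library, whereas those of Aldh and Sult overlapped. Ces genes summed to 673 and 1138 CPM in pure WT (A01, A05), 498 and 1532 in mixed WT (A02, A06), 15.7 and 2.99 in pure cancer (A03, A07) and 11.1 and 5.19 in mixed cancer cells (A04, A08). The group means were 905 ± 329 (SD, n = 2) in pure WT and 9.37 ± 9.02 CPM in pure cancer cells, 96.6 times apart, and 124 times apart between the mixed groups. For the other families, pure WT cells had 6.97 times the summed level of pure cancer cells for Ugt, 4.16 times for Cyp, 4.08 times for Mgst, 2.13 times for Gst and 1.53 times for Aldh. Sult genes summed to 83.3 ± 14.2 CPM in pure WT and 104 ± 65 CPM in pure cancer cells, and these ranges overlap. These sums are descriptions without a test.

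**Figure D1:**
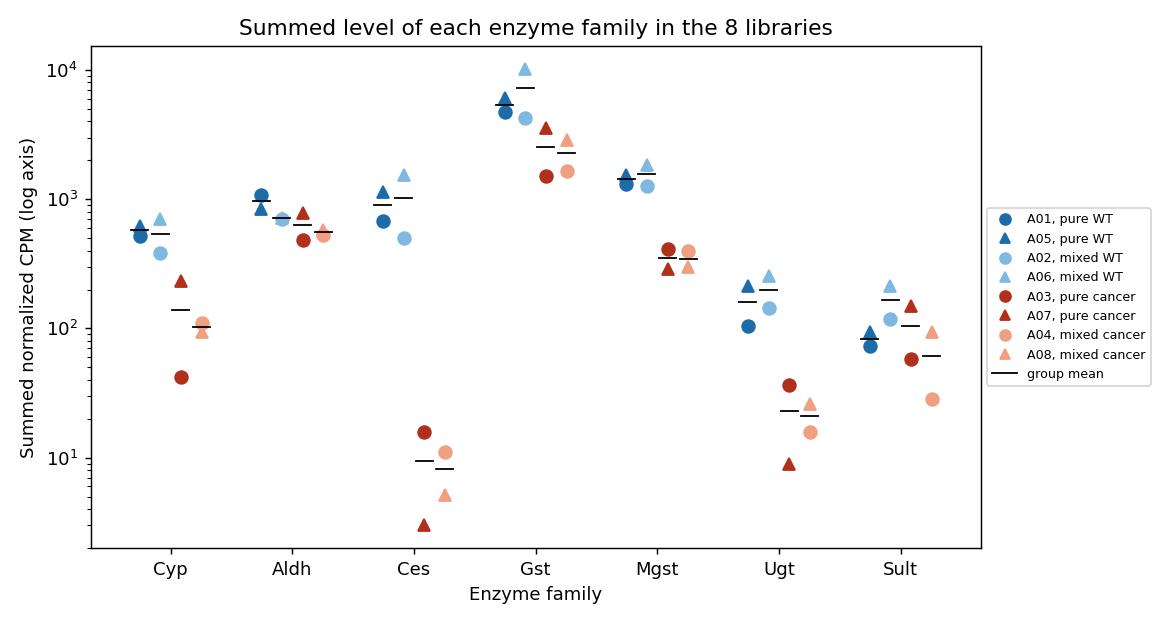
Summed normalized CPM (log axis) of each enzyme family in the 8 libraries, with circles and triangles for the 2 libraries of a group and a black line at their mean. The 4 cancer libraries lie below the 4 WT libraries for Cyp, Ces, Gst, Mgst and Ugt, widest apart for Ces (at most 15.7 against at least 498 CPM), while those of Aldh and Sult overlap.

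The first comparison asks how the enzymes of cancer cells differ from those of WT cells when each is cultured alone. Of the 40 tested enzyme genes, 20 were lower in pure cancer than in pure WT cells, 50% of them against 4.84% of all tested genes, and 1 was higher, Sult1a1 (2.5%), against 5.11% of all. The median log2 fold change was -2.35 over the enzyme genes and -0.05 over all tested genes. In the same comparison between the mixed groups, 24 were lower (60%, against 4.41% of all tested genes), and 0 were higher in edgeR and 0 in DESeq2, with 1 higher at an unadjusted p under 0.05, against 2.01% of all tested genes called higher. The median there was -2.61 against 0.12. The pure and mixed comparisons share no library, but they share the estimate of spread of the same fit. The genes lower in both numbered 19, which is 95% of the list from pure cells and 79.2% of the list from mixed cells. Aldh9a1 was called in pure cells alone, and Ces1d, Gsta3, Gsta4, Gstm6 and Ugt2b35 were called in mixed cells alone. The interaction described below called none of the 5 of these genes for which it could be fitted, and for Ces1d, without reads in cancer cells, it could not be tested.

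The filter on low counts bears on these counts. Of the 40 tested genes, 16 reached the level of the filter (23.6 CPM before TMM scaling) in WT libraries only, so they could hardly have been tested without being lower in cancer cells, and Sult1a1 reached it in cancer libraries only. These 16 were Aldh16a1, Aldh1b1, Ces1d, Ces2a, Ces2e, Ces2g, Cyp2b10, Cyp2c65, Cyp2d26, Cyp2j6, Cyp4f14, Gstt1, Gstt2, Gstt3, Sult1d1 and Ugt2b35. Among the 23 genes that reached it in both kinds of library, 7 were lower in pure cells (30.4%) and 9 in mixed cells (39.1%), against 2.16% and 1.58% of the 4354 tested genes that did so. In the levels themselves, 23 of 40 tested genes were lower in all 4 cancer libraries than in all 4 WT libraries, against 8.11% of all tested genes. The filter bears on this count too, since 15 of the 23 were among the 16 genes that passed through WT libraries only. Of the 23 that passed in both kinds of library 8 did not overlap (34.8%), against 4.75% of such genes. Sult1a1 was the only gene of the 40 that was higher in all 4 cancer libraries (2.5%, against 8.24%).

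**Figure D2:**
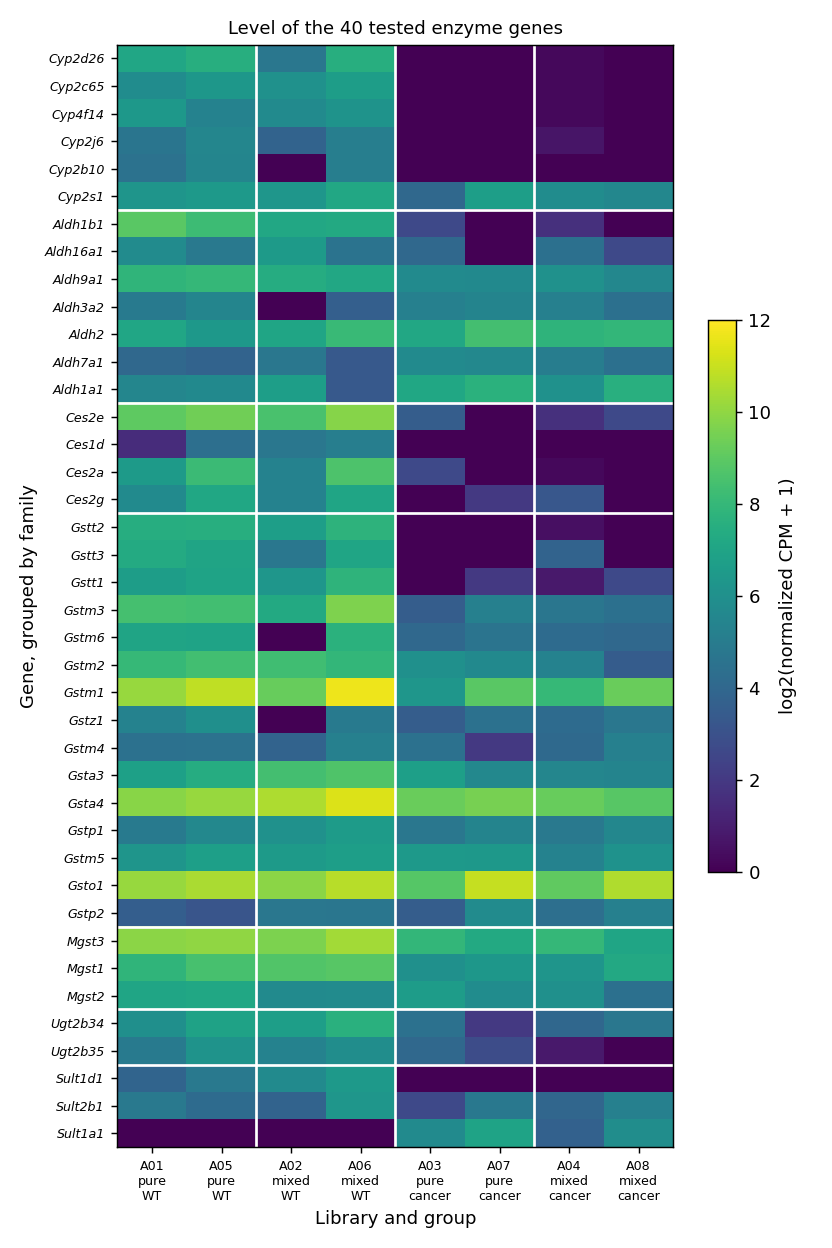
Heat map of log2(normalized CPM + 1) for the 40 tested enzyme genes (rows, grouped by family and ordered by the fold change in pure cells) in the 8 libraries (columns, by group). Most genes of the Cyp and Ces blocks are bright in the 4 WT columns and dark in the 4 cancer columns, while Cyp2s1 is bright in both, Cyp2b10 is at 0 in A02 and Ces1d at 1.83 CPM in A01, and Sult1a1 in the bottom row shows the opposite pattern.

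Among the Cyp genes, 5 of the 6 tested were lower in cancer cells in both comparisons, and their reads in cancer cells were at or near 0. All 5 reached the level of the filter in WT libraries only, so this count was close to fixed by the filter. For Cyp2d26, the pure WT libraries held 151 and 328 reads (138 and 184 CPM), the mixed WT ones 2 and 81 (26.2 and 184 CPM), the pure cancer ones none and the mixed cancer ones 1 and 0 (0.196 and 0 CPM). The groups did not overlap, and the level in pure cancer was at least 29.2-fold lower than in pure WT (adjusted p = 0.000211, edgeR). In mixed cells the level in WT was 850 times that in cancer cells (95% counting interval 148 to 34000, adjusted p = 2.93e-05, edgeR), which rests on the depth of A04, and with A08 alone the bound is 10.3-fold. Of the 3′ windows of Cyp2d26, 25.7% are identical in other Cyp2d genes, and reads that mapped equally well to several genes were discarded by the authors, so its level is uncertain. Cyp2c65, an epoxygenase of the gut epithelium, had 55.8 and 80.9 CPM in pure and 65.5 and 102 in mixed WT, with 0 reads in both pure cancer libraries and 1 and 0 reads in mixed cancer cells. It was at least 12.5-fold lower in pure cancer cells (adjusted p = 0.0014, edgeR), and every WT library lay above every cancer library. Cyp4f14, a fatty acid and leukotriene hydroxylase, was at least 9.74-fold lower in pure cancer cells (adjusted p = 0.00327, edgeR) with 39.3 to 82.4 CPM in WT libraries and 1 read in all cancer libraries together. Cyp2j6 and Cyp2b10 were at least 6.45-fold and 6.15-fold lower in pure cancer cells (adjusted p = 0.0207 and 0.0394, edgeR). Cyp2b10, the classical gene induced through the constitutive androstane receptor, had 101 reads in pure WT, 15 in mixed WT and 0 in either cancer group, but it also had 0 reads in the shallow library A02, and DESeq2 did not call it (adjusted p = 0.692). DESeq2 did not call Cyp2j6 in pure cells either (adjusted p = 0.0524). The Cyp2b10 call was lost without A01, A03 or A07 in pure cells (adjusted p = 0.0557 to 0.166, edgeR) and without A04 in mixed cells (0.401). The Cyp2j6 call was lost without A01 or A07 in pure cells (0.0812 and 0.146) and without A01, A04 or A06 in mixed cells (0.0733 to 0.348), and that of Cyp4f14 without A04 in mixed cells (0.0896, edgeR). Cyp2s1, the Cyp gene with the highest mean level, did not follow the other 5. It had 76 and 86.6 CPM in pure WT, 78.6 and 147 in mixed WT, 15.7 and 105 in pure cancer and 56.7 and 46.7 in mixed cancer cells. Its log2 fold change in pure cells was -0.35 ± 0.67 (SE; adjusted p = 0.847, edgeR), and it made up 13.9% to 21.1% of the Cyp reads in WT libraries and 37.5% to 51.1% in cancer libraries.

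Carboxylesterases hydrolyze ester drugs, retinyl esters and lipids, and the Ces2 genes among them are the main forms of the intestine. All 3 Ces2 genes in the table, which lie within 236 kb of chromosome 8 in GRCm38, were lower in cancer cells in both comparisons. These 3 and Ces1d reached the level of the filter in WT libraries only, so they could hardly have been tested otherwise. Ces2e, the Ces gene with the highest mean level, had 512 and 672 CPM in pure WT, 380 and 911 in mixed WT, 10.5 and 0 in pure cancer and 2.15 and 5.19 in mixed cancer cells. The lowest WT library was far above the highest cancer library. The pooled ratio of WT over cancer was 160 in pure cells (interval 44.3 to 1320; log2 fold change -7.19 ± 0.84, adjusted p = 3.67e-06, edgeR) and the log2 fold change in mixed cells was -8.05 ± 0.80 (adjusted p = 2.83e-07, edgeR). Ces2a had 790 reads in the WT libraries together and 2 in the cancer libraries together, a ratio of 679 with an interval of 187 to 5620. Ratios over all cancer libraries rest mostly on A04, which held 4733121 of the 5478119 reads of cancer cells. For Ces2a in mixed cells, the bound with A08 alone is 22.2-fold. Ces2g had 53.1 and 139 CPM in pure and 39.3 and 134 in mixed WT, and of its 45 reads in cancer cells 44 came from A04, where they make only 8.61 CPM. Its call was lost without A05 in pure cells (adjusted p = 0.0531, edgeR) and without A06 in mixed cells (0.316). Ces1d, of the Ces1 genes that are best known from the liver, had 0 reads in all cancer libraries and 54 in WT libraries. It was called in mixed cells (at least 58.1-fold lower, or 2.11-fold with A08 alone, adjusted p = 0.0145, edgeR) and not in pure cells (at least 2.25-fold lower, adjusted p = 0.259, edgeR), where A01 held only 2 of the 37 reads.

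Glutathione transferases were the most abundant family, and their classes differed. The 3 theta class genes Gstt1, Gstt2 and Gstt3, which act on small halogenated compounds and lie within 63 kb of chromosome 10, were lower in both comparisons. Gstt2 had 179 and 182 CPM in pure and 105 and 217 in mixed WT, with 0 reads in A03, A07 and A08 and 2 reads in A04, which is at least 31.6-fold lower in pure cancer cells (adjusted p = 3.83e-05, edgeR). Gstt1 had 437 reads in WT and 6 in cancer libraries, a ratio of 125 (interval 57.1 to 343) that rests mostly on the depth of A04. Gstt3 had 163 and 129 CPM in pure and 26.2 and 131 in mixed WT, and all of its 67 reads in cancer cells were in A04 (13.1 CPM). That level is below the 15.7 and 15.6 CPM that 3 reads make in A03 and A08 and above the 8.98 CPM they make in A07. Cancer and WT libraries did not overlap for any of the 3 genes, which reached the level of the filter in WT libraries only. The Gstt3 call in mixed cells was lost without A06 or A08.

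The mu class genes Gstm1 to Gstm7 lie within 149 kb of chromosome 3, and 6 of the 7 were tested. Gstm1, Gstm2 and Gstm3 were lower in both comparisons, with log2 fold changes of -2.38 ± 0.68, -2.41 ± 0.57 and -3.75 ± 0.70 (SE) in pure cells and -2.23 ± 0.68, -3.18 ± 0.58 and -4.41 ± 0.68 in mixed cells. Gstm3 had 350 and 332 CPM in pure WT, 157 and 822 in mixed WT, 10.5 and 35.9 in pure cancer and 25.4 and 20.7 in mixed cancer cells (adjusted p = 0.000695 and 9e-05, edgeR). Gstm1 was at 590 to 3320 CPM in WT and 78.7 to 602 CPM in cancer libraries, and A08 (602 CPM) overlapped with A02 (590 CPM). The Gstm1 call was lost in DESeq2 (adjusted p = 0.34 in pure and 0.471 in mixed cells) and with barcode counts (0.367 and 0.147, edgeR), and in mixed cells also without A04 (0.235) or A06 (0.736). That of Gstm2 in pure cells was lost without A05 (adjusted p = 0.0736, edgeR). Their neighbors Gstm4 and Gstm5 were not called in either comparison. Gstm5 had 76 and 110 CPM in pure WT, 91.8 and 106 in mixed WT, 89.2 and 83.8 in pure cancer and 38.9 and 67.4 in mixed cancer cells, and its log2 fold change in pure cells was -0.11 ± 0.58 (adjusted p = 0.949, edgeR). Gstm6 was lower in mixed cells (log2 fold change -2.81 ± 0.84, adjusted p = 0.0453, edgeR) and missed the threshold in pure cells (-2.61 ± 0.87, adjusted p = 0.0587, edgeR). Gstm6 also lost the call in mixed cells in DESeq2 (adjusted p = 0.0597) and at a minimum count of 50 (0.109, edgeR). Its 0 reads in A02 stand against 199 CPM in A06, and without A06 the fitted change in mixed cells turned to 7.42 (adjusted p = 0.361, edgeR). A test between neighboring genes of the cluster was not made.

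The alpha class genes Gsta3 and Gsta4, the latter specialized in the lipid aldehyde 4-hydroxynonenal, were lower in mixed cancer than in mixed WT cells (log2 fold change -3.13 ± 0.57 and -1.94 ± 0.43, adjusted p = 0.000683 and 0.00461, edgeR) and not called between the pure groups (-0.91 ± 0.54 and -0.61 ± 0.41, adjusted p = 0.367 and 0.451, edgeR). The Gsta4 call was lost without A06 (adjusted p = 0.106, edgeR) and with barcode counts (0.254). Gsto1, an omega class enzyme and the Gst gene with the highest mean level, was not called. It had 1120 and 1430 CPM in pure WT, 957 and 1660 in mixed WT, 457 and 1940 in pure cancer and 533 and 1500 in mixed cancer cells, and its share of all Gst reads was 16.2% to 24% in WT and 30.1% to 54.8% in cancer libraries. The 2 libraries of each cancer group were further apart than cancer and WT cells were. Gstz1, Gstp1 and Gstp2 were not called, and 75.2% and 88.9% of the 3′ windows of Gstp1 and Gstp2 are shared with other genes, so their reads are uncertain. Of the microsomal enzymes, Mgst1 and Mgst3 were lower in both comparisons. Mgst3 had 952 and 1030 CPM in pure WT, 786 and 1310 in mixed WT, 247 and 153 in pure cancer and 255 and 130 in mixed cancer cells, with log2 fold changes of -2.33 ± 0.48 (adjusted p = 0.00208, edgeR) and -2.41 ± 0.48 (adjusted p = 0.00157, edgeR). Mgst1 fell by 2.04 ± 0.52 and 2.09 ± 0.52 on the log2 scale (adjusted p = 0.0121 and 0.0124, edgeR). Its call was lost without A03 (adjusted p = 0.0573, edgeR) or A05 (0.209) in pure cells and without A04 (0.246) or A06 (0.0605) in mixed cells, and with barcode counts in pure cells the calls of Mgst1 and Mgst3 were both lost (0.102 and 0.458). Mgst2 was not called (-0.83 ± 0.62 and -0.16 ± 0.68).

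**Figure D3:**
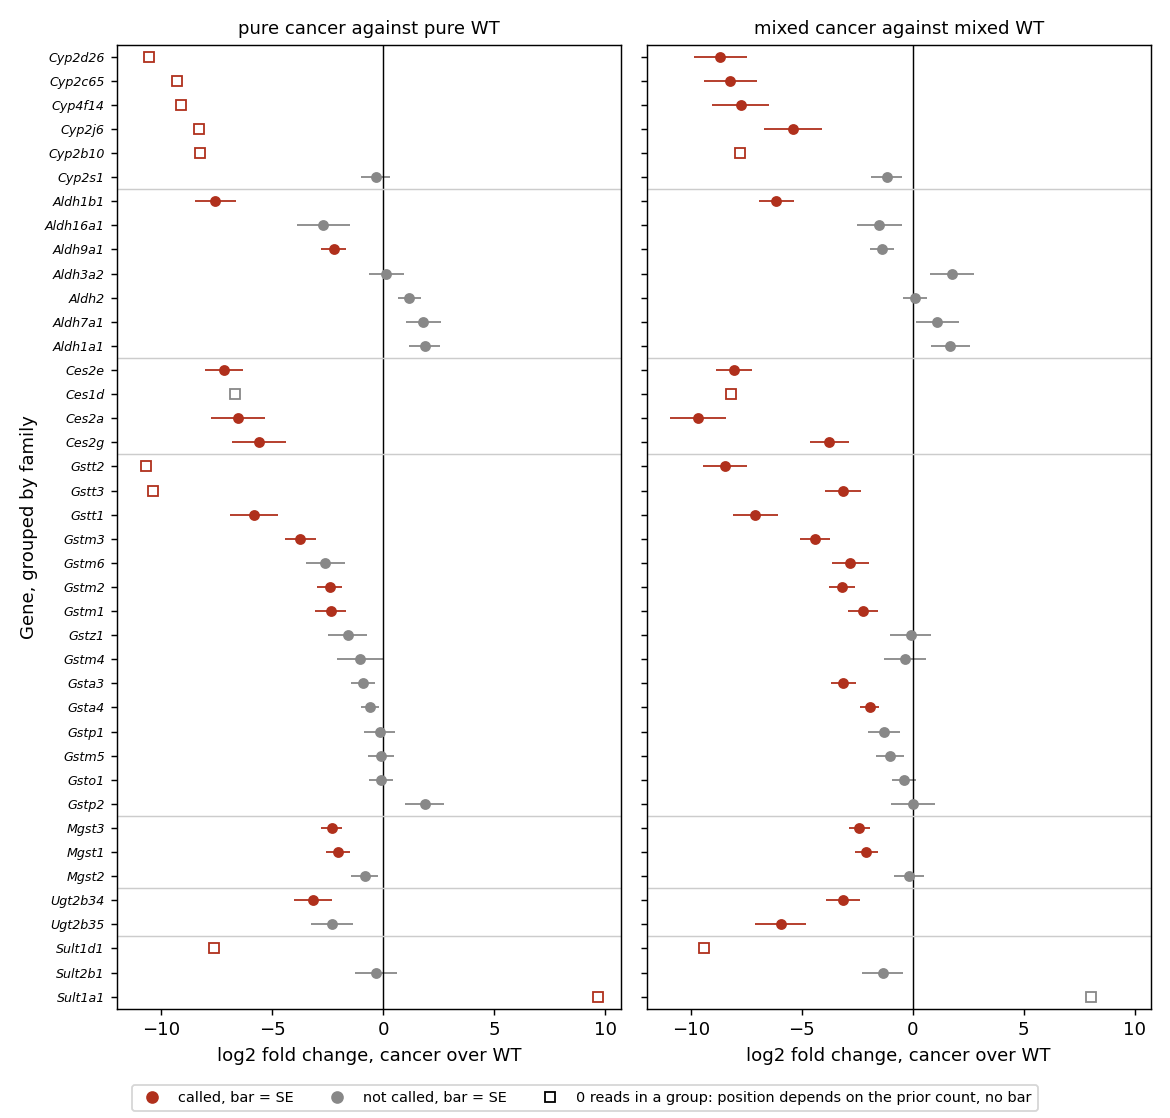
Log2 fold change of cancer over WT cells for the 40 tested enzyme genes in pure (left) and mixed cells (right), with SE bars, red where the adjusted p was under 0.05. Open squares mark genes with 0 reads in a group, whose position depends on the prior count of the fit. Most points of the Cyp, Ces, Gstt, Gstm and Mgst genes lie left of 0 in both panels, and Sult1a1 lies far to the right.

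Of the conjugating enzymes, Ugt2b34 was lower in both comparisons. It had 62.2 and 121 CPM in pure WT, 105 and 197 in mixed WT, 21 and 2.99 in pure cancer and 14.9 and 25.9 in mixed cancer cells (log2 fold change -3.16 ± 0.86 and -3.14 ± 0.76, adjusted p = 0.0186 and 0.0111, edgeR), without overlap. The call in pure cells was lost without A05 (adjusted p = 0.227, edgeR) or A07 (0.228), and that in mixed cells without A04 (0.215) or A06 (0.152). Ugt2b35 was lower in mixed cells (-5.95 ± 1.15, adjusted p = 0.00129, edgeR) and not called in pure cells (-2.32 ± 0.95, adjusted p = 0.145, edgeR), and the call in mixed cells was lost without A04 (adjusted p = 0.127, edgeR) or A06 (0.0512). The Ugt1a genes, which share their last exons, could not be assessed, since all 3′ windows of Ugt1a1 are shared and the table held 3 reads of Ugt1a1 and 5 of Ugt1a7c.

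The sulfotransferases Sult1d1 and Sult1a1 went in opposite directions. Sult1d1, which conjugates catecholamines, had 13.7 and 28.1 CPM in pure WT, 52.4 and 86.1 in mixed WT and 0 reads in all cancer libraries, which is at least 143-fold lower in mixed cancer (adjusted p = 0.000261, edgeR) and at least 3.96-fold lower in pure cancer cells (adjusted p rounds to 0.05 and lies below it, edgeR). In pure cells it was not called in DESeq2 (adjusted p = 0.0855) or with RLE scaling (0.0501, edgeR). The larger limit rests on the depth of A04, since with A08 alone it is at least 5.21-fold, and the call in mixed cells was lost without A04 (adjusted p = 0.101, edgeR). The call in pure cells was lost without any 1 of A01, A03, A05, A06 and A07 (adjusted p = 0.0752 to 0.338, edgeR). Sult1a1, the phenol sulfotransferase, had 0 reads in each of the 4 WT libraries, 10 and 41 reads in pure cancer and 63 and 11 in mixed cancer cells (52.5 and 123, and 12.3 and 57.1 CPM). It was at least 93.1-fold higher in pure cancer than in pure WT cells (adjusted p = 0.000175, edgeR). In mixed cells it was at least 2.41-fold higher and not called (adjusted p = 0.0771, edgeR), with only 73109 and 515035 reads in the mixed WT libraries. Every cancer library lay above the 4 WT libraries. The last exon of Sult1a1 overlaps that of Sgf29 on the opposite strand, which the table lists as Ccdc101 with 0 to 31.5 CPM. Ccdc101 had 14.6 and 25.3 CPM in the pure WT libraries, where Sult1a1 had no read. Sult2b1 was not called (-0.33 ± 0.94 and -1.36 ± 0.92).

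Of the aldehyde dehydrogenases, the mitochondrial Aldh1b1 was lower in both comparisons. It had 486 and 302 CPM in pure WT, 144 and 154 in mixed WT, 5.25 and 0 in pure cancer and 2.15 and 0 in mixed cancer cells. The pooled ratio of WT over cancer was 195 in pure cells, on 1 read in cancer (interval 35 to 7720, adjusted p = 5.3e-06, edgeR), and the log2 fold change in mixed cells was -6.16 ± 0.79 (adjusted p = 1.03e-05, edgeR). Aldh9a1, which makes a carnitine precursor, had 232 and 256 CPM in pure WT, 170 and 147 in mixed WT, 52.5 and 50.9 in pure cancer and 66.9 and 46.7 in mixed cancer cells. It was lower in pure cells (log2 fold change -2.24 ± 0.54, adjusted p = 0.00818, edgeR) and not called in mixed cells (-1.40 ± 0.54, adjusted p = 0.153, edgeR), although no cancer library reached a WT library, and the call in pure cells was lost without A05 (0.117) or A07 (0.0647). Aldh2, the main enzyme for acetaldehyde and the Aldh gene with the highest mean level, was not called. It had 135 and 83.2 CPM in pure WT, 131 and 281 in mixed WT, 147 and 338 in pure cancer and 222 and 249 in mixed cancer cells (log2 fold change 1.17 ± 0.52, adjusted p = 0.195, edgeR, in pure cells). Aldh3a2, Aldh7a1 and Aldh16a1 were not called either, at -2.71 to 1.81 on the log2 scale in pure cells.

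Of the Aldh1a and Cyp26 genes, Aldh1a1 alone had enough reads to be tested. Aldh1a1, which makes retinoic acid, had 44.8 and 50.6 CPM in pure WT, 105 and 9.06 in mixed WT, 142 and 204 in pure cancer and 66.3 and 187 in mixed cancer cells. Pure cancer libraries lay above pure WT libraries, but the change was not called (log2 fold change 1.86 ± 0.70, adjusted p = 0.105, edgeR), nor was that in mixed cells (1.69 ± 0.88, adjusted p = 0.35, edgeR), where the groups overlapped. Aldh1a7 had 84 reads in all and 4.53 to 21 CPM in every library, too few to test. Cyp26b1, which degrades retinoic acid, had 41 reads, 39 in A04 and 2 in A08, and 0 in the other 6 libraries. The pooled level in mixed cancer cells (7.73 CPM) was at least 1.35 times that in pure cancer cells, where 3 reads make 5.72 CPM, on reads that come almost all from A04 and were too few to test. Against all WT libraries together, the cancer libraries had at least 7.95 times the level.

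The genes that handle retinoids around these enzymes were counted from a list of 34, of which 13 were tested. In pure cancer cells 3 were higher and 2 lower, and in mixed cancer cells 3 were higher and 1 lower, with list medians of -0.10 and -0.22. Of all tested genes, 5.11% were called higher and 4.84% lower in pure cells, and 2.01% and 4.41% in mixed cells. The higher genes were the same in both comparisons. Stra6, the membrane receptor that takes up retinol, had 9.15 and 2.81 CPM in pure WT, 13.1 and 27.2 in mixed WT, 157 and 566 in pure cancer and 480 and 690 in mixed cancer cells (log2 fold change 6.01 ± 0.71 and 4.60 ± 0.73, adjusted p = 3.81e-06 and 0.000134, edgeR). Rbp4, the retinol carrier that binds Stra6, rose by 3.05 ± 0.74 and 3.34 ± 0.92, and Rarg, a retinoic acid receptor, by 4.66 ± 0.79 and 3.04 ± 0.89 on the log2 scale. All 4 cancer libraries lay above the 4 WT libraries for each of the 3 genes, an ordering that 8.24% of all tested genes had. The 3 genes reached the level of the filter in cancer libraries only, so they could hardly have been tested without being higher there. Adh1, which oxidizes retinol and other alcohols, had 1700 and 2110 CPM in pure WT, 472 and 537 in mixed WT, 0 and 5.99 in pure cancer and 4.11 and 0 in mixed cancer cells (adjusted p = 3.63e-08 in pure and 1.15e-07 in mixed cells, edgeR). Adh1 reached the level of the filter in WT libraries only, so it could hardly have been tested without being lower in cancer cells. Dgat1, which esterifies retinol and diacylglycerol, was lower in pure cells (log2 fold change -3.73 ± 0.84, adjusted p = 0.00421, edgeR). The receptors Rara, Rxra and Rxrb and the retinol dehydrogenases Rdh10, Rdh11 and Rdh14 were not called, with log2 fold changes from -1.18 to 0.92 over both comparisons.

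**Figure D4:**
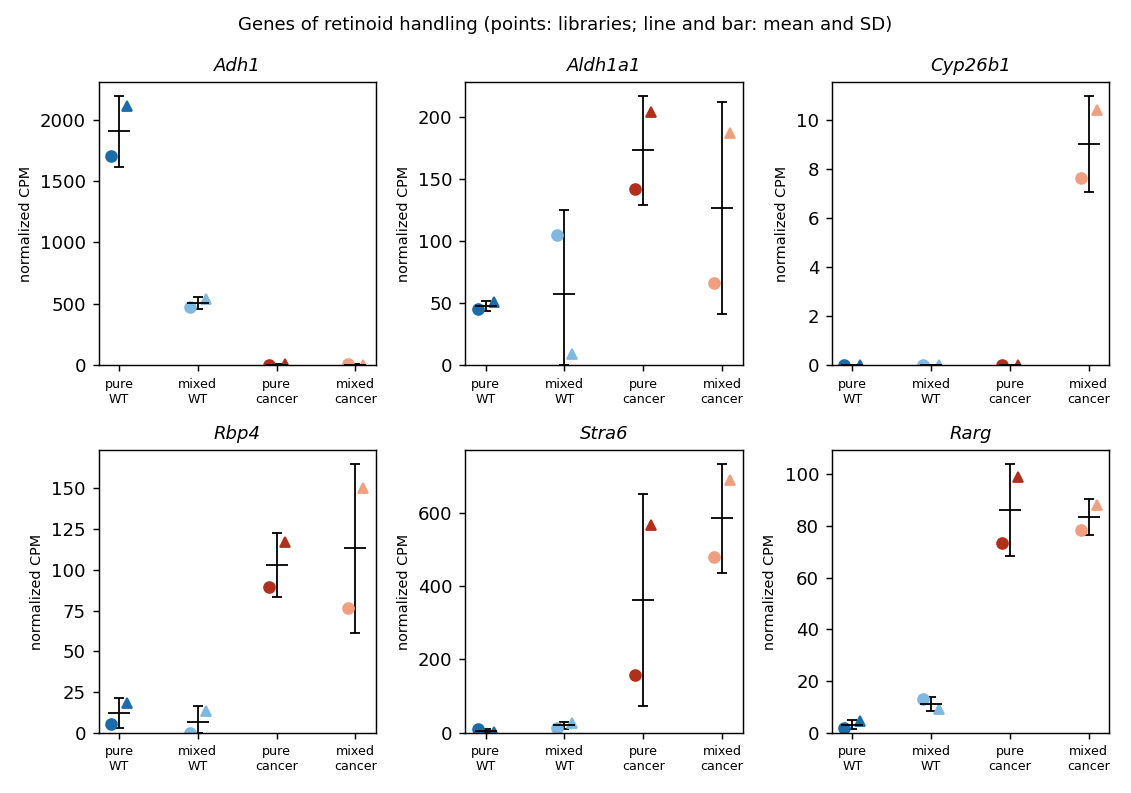
Normalized CPM (linear axis from 0) of Adh1, Aldh1a1, Cyp26b1, Rbp4, Stra6 and Rarg by group, with points for libraries and a line and bar for mean and SD (n = 2). Adh1 is at 472 CPM or above in WT libraries and at 5.99 or below in cancer libraries, and Rbp4, Stra6 and Rarg lie higher in all 4 cancer libraries.

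Other genes of these pathways were also counted from lists. Of all tested genes, edgeR called 4.84% lower and 5.11% higher in pure cells, and 4.41% and 2.01% in mixed cells. At an unadjusted p under 0.05, 542 of all 5264 tested genes were lower and 536 higher in pure cells, and 446 and 418 in mixed cells. Of 18 tested oxidoreductases and redox partners, 4 were lower in pure cancer cells (Akr1c12, Akr1c13, Ephx1 and Maoa), 5 in mixed cancer cells (Akr1c12, Cbr1, Cbr3, Ephx1 and Ephx2) and 0 higher in edgeR, with 1 higher in pure and 0 in mixed cells at an unadjusted p under 0.05. Ephx1, the epoxide hydrolase that takes up Cyp products, had 166 to 349 CPM in WT and 5.99 to 26.2 CPM in cancer libraries (log2 fold change -3.56 ± 0.70 in pure cells, adjusted p = 0.00123, edgeR). Por, which passes electrons to the microsomal Cyp enzymes, was not called (0.35 ± 0.56 and -0.33 ± 0.57) and lay at 59.6 to 184 CPM in all libraries. None of 10 glutathione synthesis and peroxidase genes and none of 3 efflux transporters was called in edgeR in either comparison. At an unadjusted p under 0.05, 1 glutathione gene was lower in pure cells, and 2 glutathione genes and 1 transporter were lower in mixed cells. Of 6 other conjugation and cofactor genes, Bpnt1 and Tpmt were lower in mixed cells, and 0 were called in pure cells in edgeR, where 1 was higher and 2 lower at an unadjusted p under 0.05. Of 17 tested regulators, 4 were lower in pure cancer cells (Cdx1, Gata4, Hnf4a and Vdr) and 1 higher (Maff), and 7 were lower in mixed cancer cells (Cdx1, Cdx2, Gata6, Hnf4a, Nr1h4, Pparg and Vdr) and 0 higher in edgeR, with 1 higher at an unadjusted p under 0.05. Hnf4a, a receptor of the absorptive lineage, had 321 and 332 CPM in pure WT, 367 and 641 in mixed WT, 47.2 and 35.9 in pure cancer and 34 and 5.19 in mixed cancer cells (log2 fold change -2.995 ± 0.60, adjusted p = 0.00146, and -4.31 ± 0.60, adjusted p = 3.1e-05, edgeR). Nfe2l2, the activator that binds the antioxidant response element, was not called (-0.20 ± 0.58 and -1.10 ± 0.60). Its repressor Keap1 was not called either (0.31 ± 0.62 and -0.68 ± 0.65). Akr1c12, Maoa, Ephx2, Tpmt, Cdx1, Gata6, Nr1h4, Pparg and Vdr reached the level of the filter in WT libraries only. They could hardly have been tested here without being lower in cancer cells.

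Markers of differentiated cells were mostly lower in cancer cells too. Of all tested genes, 4.84% were called lower and 5.11% higher in pure cells, and 4.41% and 2.01% in mixed cells. Of 8 tested enterocyte markers, 7 were lower in cancer cells in each comparison, and the 13 listed ones in the table summed to 977 to 1630 CPM in WT and 59.9 to 128 CPM in cancer libraries. Of these 13, 5 had no read in any cancer library (Apob, Enpep, Sis, Slc5a1 and Treh), and Vil1 was the tested one that was not called. Goblet markers were lower for 4 of 5, enteroendocrine for 4 of 4 (316 to 641 CPM summed in WT, at most 1.57 CPM in cancer libraries) and Paneth for 3 of 4, with 1 Paneth marker higher. The filter bears on these counts too. The enterocyte and enteroendocrine markers called lower had at most 10 reads in any cancer library (Alpi in A04). The 4 goblet markers called lower (Agr2, Fcgbp, Tff3 and Zg16) reached the level of the filter in WT libraries only. So did the Paneth markers Ang4 and Lyz1, the stem cell marker Smoc2 and the hepatocyte marker Ttr. All of these could hardly have been tested without being lower in cancer cells. Of 6 stem cell markers, 2 were lower in pure cells, and 1 was lower and 1 higher in mixed cells. The only tested tuft marker, Avil, was higher in pure cells, and the only tested hepatocyte marker, Ttr, was lower in both. Of 5 epithelial markers, 0 were called in pure cells and 1 was lower in mixed cells (edgeR). The part of cell composition in the lower enzyme levels was not tested, and fewer cells of a type and less RNA per cell cannot be told apart in bulk libraries.

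The second comparison asks whether the enzymes change when WT and cancer cells meet. In WT cells, edgeR called 0 of the 40 higher and 0 lower, against 0.646% and 0.095% of all tested genes, and DESeq2 called 0. At an unadjusted p under 0.05, 3 were higher and 1 lower, against 5% and 4.67% of all tested genes. In cancer cells, edgeR called 0 higher and 0 lower, against 0% and 0% of all tested genes, and DESeq2 called 0. At an unadjusted p under 0.05, 1 was higher (Gstt3) and 1 lower (Ugt2b35), against 1.03% and 0.285% of all tested genes. In cancer cells Gstt3 had reads in A04 only, and Ugt2b35 had 5 reads in the pure and 4 in the mixed group. The median log2 fold changes were 0.10 in WT and -0.01 in cancer cells, against -0.10 and 0.03 over all tested genes.

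The 4 genes with an unadjusted p under 0.05 in WT cells, given here as values, did not overlap between mixed and pure libraries. Of all tested genes, 15% lay higher in both mixed than in both pure WT libraries and 28.8% lower, and of the 40 enzyme genes 17.5% and 12.5%. Gsta3 had 113 and 174 CPM in pure and 341 and 419 in mixed WT (log2 fold change 1.41 ± 0.51, adjusted p = 0.298, edgeR). Gsta4 had 937 and 1120 CPM in pure and 1460 and 2610 in mixed WT (0.99 ± 0.41, adjusted p = 0.391, edgeR). These are the alpha class genes, known for lipid peroxidation products. Sult1d1 was at 13.7 and 28.1 against 52.4 and 86.1 CPM (1.79 ± 0.84, adjusted p = 0.501, edgeR), and Aldh1b1 was at 486 and 302 against 144 and 154 CPM (-1.39 ± 0.55, adjusted p = 0.361, edgeR). Adh1 of the retinoid list, at 1700 and 2110 against 472 and 537 CPM, was closer to the threshold (-1.91 ± 0.46, adjusted p = 0.0524, edgeR). No listed marker of a cell type was called on mixing, and the enterocyte sum was 1630 and 977 CPM in pure and 1520 and 1330 CPM in mixed WT cells. The sums of 3 other marker lists lay apart without overlap. Those of Paneth markers were 2160 and 4190 CPM in pure and 918 and 1510 CPM in mixed WT cells, those of stem cell markers 509 and 722 against 105 and 274 CPM, and those of tuft markers 7.32 and 10.7 against 39.3 and 20.4 CPM. Their part in the values above was not tested.

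The last comparison asks whether the change on mixing differs between WT and cancer cells, as the difference of their log2 fold changes. For this difference, edgeR called 0 enzyme genes in either direction (against 0.076% of all tested genes higher in WT and 0% lower), and DESeq2 called 0. At an unadjusted p under 0.05, 3 were higher and 1 lower, against 3.34% and 3.93% of all tested genes. Ces1d, Cyp2b10 and Sult1d1, without reads in either cancer group, and Sult1a1, without reads in either WT group, could not be tested for this difference. The 3 higher ones were Gsta3 (2.22 ± 0.77), Ugt2b35 (3.63 ± 1.49) and Gsta4 (1.33 ± 0.59), and the lower one was Gstt3, which rests on the reads of A04. Ugt2b35 had only 5 reads in pure cancer cells and 4 in mixed cancer cells, those 4 all in A04.

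**Figure D5:**
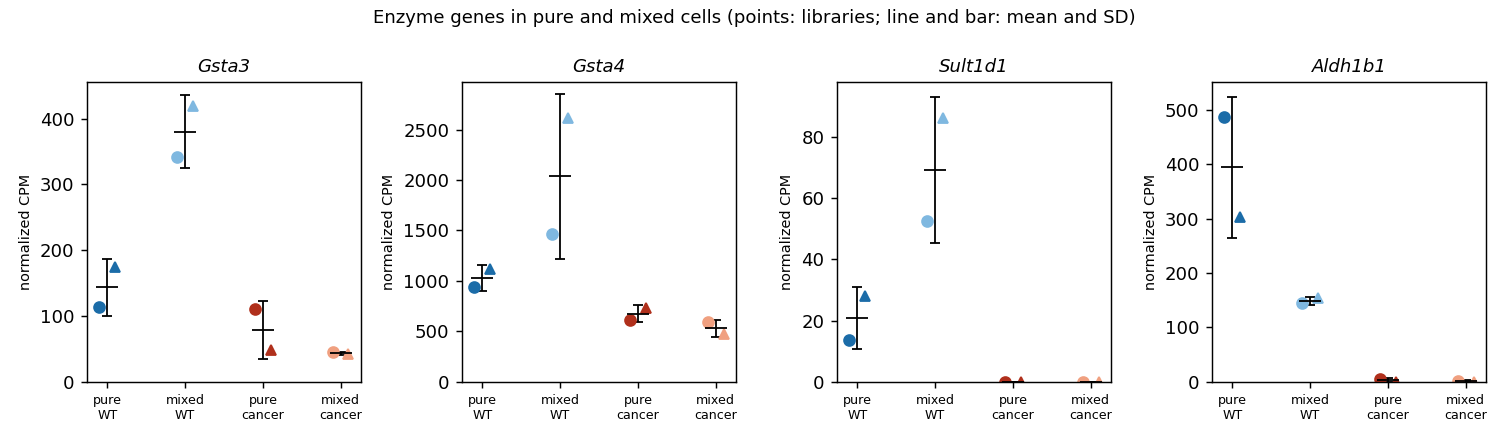
Normalized CPM (linear axis from 0) of Gsta3, Gsta4, Sult1d1 and Aldh1b1 by group, with points for libraries and a line and bar for mean and SD (n = 2). Mixed WT libraries lie above pure WT libraries for Gsta3, Gsta4 and Sult1d1 and below them for Aldh1b1, and no change on mixing passed the adjusted threshold.

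The 63 enzyme genes that could not be tested had 1 to 132 reads in all, and 31 had at least 10. Reads came from both kinds of cells for 27 of them, from WT libraries only for 28 and from cancer libraries only for 8. The cancer libraries held more reads in total (5478119 against 3596976), but 4733121 of these were in A04 alone. Among the 32 untested Cyp genes, 16 had reads in WT libraries only and 6 in cancer libraries only. Cyp3a11, a main drug-oxidizing enzyme of liver and gut, had 10 and 16 reads in pure WT and 0 elsewhere, and Cyp3a13 had 57 reads in WT and 32 in cancer libraries. Cyp1b1, induced through the dioxin receptor, had 1 read in A05, 11 in A07, 75 in A04 and 3 in A08, a ratio of cancer over WT of 51.8 (interval 9.05 to 2070). The following were chosen after their values were seen. Cyp4b1 had 58 reads and Cyp2c66 had 36, all in WT libraries, which is at least 33.2-fold and 20.6-fold lower in cancer cells. These limits rest mostly on the depth of A04. Aldh3a1 had 91 reads in cancer libraries, 89 of them in A04, and 1 in WT libraries. Ces1f had 52 reads in WT and 1 in cancer libraries.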

How the data were processed

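CEL-Seq libraries of the 8 sorted samples were sequenced by the authors, who aligned reads to the mm10 RefSeq transcriptome with BWA, discarded reads mapping equally well to several places and assigned the rest with featureCounts. The authors deposited read counts, molecule barcode counts and expected counts of transcripts estimated from the barcodes, none normalized. Barcode counts do not exceed 256, so read counts, which hold amplification copies, were used. The authors' DESeq2 1.22.2 table of mixed against pure WT cells, with its mean normalized signal, log2 fold change, score and p-value columns, was not used.

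Read counts of all 8 libraries entered one edgeR 4.0.16 quasi-likelihood fit in R 4.3.3 (filterByExpr at a minimum count of 10, TMM factors), with Benjamini-Hochberg adjustment over 5264 genes and calls at an adjusted p under 0.05. The SE was taken as the size of a log2 fold change over the square root of its F statistic. A gene without reads in a group was set against 3 reads over the group, and ratios on few reads carry 95% exact intervals. The script was tested on simulated data. Alternatives were barcode and transcript counts, other scalings, other filters, the compared libraries alone, DESeq2 1.42.0 and each library left out. Enzyme genes and lists were chosen with earlier results of these data known. Named were the called genes, the gene with the highest mean level of each family, and Aldh1a, Cyp26, Cyp1 and Cyp3a genes with at least 10 reads, while others were named after their values were seen. Positions and shared 3′ windows of 50 bases in the last 500 are from GENCODE vM21 (GRCm38), which matched all 103 genes. Of these, 14 share over 10% of their windows. A further allele of the cancer organoids is not reported here.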

Additional observations from a re-analysis of the deposited data

Results flagged for a closer look

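Gsta3 and Gsta4 were flagged because the libraries of WT and cancer cells lay in opposite directions on mixing. The flag was sought among tested enzyme genes with reads in every library. This ordering is the rule of the flag itself, and the share of all tested genes that meet it was not counted. Both mixed WT libraries lay above both pure WT libraries, and both mixed cancer libraries lay below both pure cancer libraries. Gsta3 was at 110 and 47.9 CPM in pure cancer and 44.8 and 41.5 CPM in mixed cancer cells, and Gsta4 was at 614 and 736 CPM in pure cancer and 590 and 472 CPM in mixed cancer cells. The difference of the changes (WT minus cancer) was 2.219 on the log2 scale for Gsta3 and 1.334 for Gsta4. Neither difference passed the test for it (adjusted p = 0.533 and 0.638, edgeR interaction over 5264 genes).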

How the results depend on the processing

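No paired analysis was made, because the labels name wells and give no replicate number that the groups share. The genes lower in pure cancer cells numbered 20 of 40, and 16 of 57 in DESeq2 (185 of all 7434 genes tested). At a minimum count of 50 they numbered 11 of 19 (109 of all 1543). With a library left out, 41 to 55 enzyme genes were tested, so the counts without a library are not out of 40. Leaving out each library in turn gave 12 to 21, the lowest without A05. The genes lower in mixed cancer cells numbered 24 of 40, 24 of 56 in DESeq2 (235 of all 7173) and 11 of 19 at a minimum count of 50 (101 of all 1543). Leaving out each library in turn gave 14 to 28, with 14 without A04 and 15 without A06. Without the shallow library A02 the counts were 21 and 26. Higher in pure cancer cells were 1 gene in the main test, 2 with barcode counts, 2 with transcript counts, 2 without a filter, 2 in a fit of the compared libraries, 0 at a minimum count of 50, 5 at an unadjusted p and 1 to 3 without a library (3 without A02, A03 or A06). Higher in mixed cancer cells were 0 in the main test, 2 with barcode counts, 1 with transcript counts, 1 without a filter, 1 at an unadjusted p and 0 to 1 without a library. On mixing, an unadjusted p gave 3 higher and 1 lower in WT cells, 1 and 1 in cancer cells, and 3 and 1 for the difference. At an adjusted p under 0.05, the counts on mixing were 0 in the main test, with barcode or transcript counts and in DESeq2. The summed Mgst level in pure cancer over pure WT (log2 ratio -2.029) was -0.91 with barcode counts and -1.479 with transcript counts (barcode counts cannot exceed 256), and its ratio of mixed over pure WT (0.12) was 0.821 with barcode counts. Without a library, log2 ratios of summed levels in pure cells ran from -3.866 (without A07) to -1.343 for Cyp, -1.098 to -0.354 for Aldh, -8.287 to -5.939 for Ces, -1.924 to -0.653 for Gst, -2.346 to -1.844 for Mgst, -4.196 to -2.172 for Ugt and -0.624 to 0.798 for Sult. The fitted change of Gstm6 in mixed cells (-2.806) ran from -3.529 without A02 to 7.422, the opposite direction, without A06 (adjusted p = 0.361, edgeR), which leaves A02 with 0 reads. Of the 21 genes called in pure cells, 11 were called in every alternative that tested them, and of the 24 in mixed cells, 12 were. Sult1d1 in pure cells was called in 7 of 14. Apart from the tests with fewer genes or libraries, the cause of these shifts was not tested. Depth limits A02 most, where 3 reads make 39.3 CPM, then A03 and A08 with 15.7 and 15.6 CPM.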
